A study of Rattus norvegicus with 21 samples.

Results

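The genes described here are the nuclear genes of the mitochondrial respiratory chain and the ATP synthase, measured in the liver of rats given the carcinogen diethylnitrosamine (DEN). They were chosen by name alone: every array probe whose gene symbol begins with Ndufa, Ndufb, Ndufc, Ndufs, Ndufv, Sdha, Sdhb, Sdhc, Sdhd, Uqcr, Cox4 to Cox8 or Atp5. The rule found 71 genes, each with a single probe, among the 22523 probes of the array. Of these, 57 are structural subunits of complexes I to V, 9 are assembly factors, 3 are muscle or testis isoforms of complex IV and 2 are a paralog and a pseudogene (Ndufa10l1 and Ndufs6-ps1), whose probes may share sequence with their parent genes. By complex, 37 genes belong to complex I, 6 to complex II, 4 to complex III, 11 to complex IV and 13 to complex V. A filter on dim probes (a signal above the 40th percentile of its array on at least 3 arrays) was passed by 70 of the 71 genes. Ndufs4, an accessory subunit of complex I, did not pass it, with log2 levels of 5.79 to 6.40 on the 21 arrays, around the median of all normalized values (6.38).

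Male Wistar rats received weekly intraperitoneal DEN at 50 mg/kg (DEN 50) or 100 mg/kg (DEN 100), or phosphate-buffered saline (PBS). At the time labelled week 12 the groups were PBS, DEN 50 and DEN 100. At the time labelled week 18 the groups were vehicle, erlotinib at 0.5 mg/kg (erlotinib 0.5) and erlotinib at 2 mg/kg (erlotinib 2), all 3 in rats that also had DEN 50, and PBS without DEN. Erlotinib, an inhibitor of the epidermal growth factor receptor kinase, and vehicle were injected 5 times per week in weeks 13 to 18. The labels of the week 18 PBS rats give None in place of vehicle or erlotinib. In the comparisons of week 18 with PBS, DEN and these injections therefore cannot be told apart. The lower erlotinib dose came from a separate study, and the vehicle rats of the 2 studies were combined without a label that says which rat came from which. Killing followed 1 week without injections, and the tissue was non-tumor liver, called cirrhotic by the labels in DEN rats. Each group held 3 rats and each rat 1 array, 21 in all. The labels name no batch of animals or arrays. The error given below is a moderated SE (limma), from the spread among rats pooled over all 7 groups. It is not the spread of the compared rats alone.

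The respiratory chain passes electrons from nutrients to oxygen in the inner mitochondrial membrane. Complex I takes them from NADH and complex II, which is also the succinate dehydrogenase of the tricarboxylic acid cycle, takes them from succinate. Complex III and complex IV carry them on through cytochrome c to oxygen, complexes I, III and IV pump protons, and complex V, the ATP synthase, uses the returning protons to make ATP. Hepatocytes are rich in mitochondria, and their urea synthesis and gluconeogenesis depend on this ATP. The subunits encoded by the mitochondrial genome were not analysed here, nor were Uqcrc2, Cox4i2, Cox7a1 and Cox7a2.

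Promoters are shown for Sdhaf3, the assembly factor with the largest falls, and for Sdha, Ndufa12 and Atp5po. Levels of Sdha, Ndufa12 and Atp5po on the 15 arrays of DEN rats did not overlap those on the 6 PBS arrays. Of the 70 genes tested, 2 were higher and 1 lower without overlap, beside 3.8% and 2.32% of all features. Each stretch runs 5′ to 3′ on the gene's own strand, from 250 bases before to 50 bases after the RefSeq start in rat assembly GRCr8. The Sdha promoter is chr1:30764303-30764602 (plus strand, 60.3% G or C), that of Sdhaf3 chr4:36066713-36067012 (plus strand, 55.3%), that of Ndufa12 chr7:30658066-30658365 (plus strand, 56.3%) and that of Atp5po chr11:44657434-44657733 (minus strand, 53.3%). Capitals mark exact matches to 1 form (GCGCATGCG) of the motif of nuclear respiratory factor 1 (NRF1), a transcription factor known for its respiratory chain targets.
Sdha: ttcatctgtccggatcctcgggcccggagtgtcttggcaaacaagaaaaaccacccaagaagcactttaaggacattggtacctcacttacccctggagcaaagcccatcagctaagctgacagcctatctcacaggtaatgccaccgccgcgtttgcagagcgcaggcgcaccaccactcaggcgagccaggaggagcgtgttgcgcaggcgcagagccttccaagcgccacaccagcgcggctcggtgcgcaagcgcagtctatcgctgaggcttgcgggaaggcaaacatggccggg
Sdhaf3: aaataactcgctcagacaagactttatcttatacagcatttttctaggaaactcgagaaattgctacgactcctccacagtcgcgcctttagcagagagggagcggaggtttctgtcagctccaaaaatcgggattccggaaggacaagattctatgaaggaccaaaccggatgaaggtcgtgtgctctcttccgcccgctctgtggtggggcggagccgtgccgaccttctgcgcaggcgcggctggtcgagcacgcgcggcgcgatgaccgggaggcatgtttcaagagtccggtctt
Ndufa12: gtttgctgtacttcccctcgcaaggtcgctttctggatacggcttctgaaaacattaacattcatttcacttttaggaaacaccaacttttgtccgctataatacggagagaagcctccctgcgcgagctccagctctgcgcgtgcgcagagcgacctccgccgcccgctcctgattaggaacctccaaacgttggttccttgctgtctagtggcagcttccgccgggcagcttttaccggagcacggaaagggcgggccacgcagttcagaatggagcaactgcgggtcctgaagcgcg
Atp5po: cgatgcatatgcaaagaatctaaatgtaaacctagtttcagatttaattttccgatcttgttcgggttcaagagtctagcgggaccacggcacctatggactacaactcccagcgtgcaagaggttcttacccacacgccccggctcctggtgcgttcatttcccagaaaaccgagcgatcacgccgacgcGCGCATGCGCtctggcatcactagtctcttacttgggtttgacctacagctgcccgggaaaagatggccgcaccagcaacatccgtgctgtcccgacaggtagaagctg
The Atp5po promoter held these letters on both strands, overlapping in the capitals. No exact match to them stood in the other 3 windows, and variant forms of the NRF1 motif were not searched.

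Over the group, 62 of the 71 genes had a promoter in the table, and 4 motifs were searched on both strands. NRF1 (GCGCATGCG) was found in 8 of the 62 promoters (12.9%), those of Atp5mc2, Atp5me, Atp5mg, Atp5po, Ndufa11, Ndufaf4, Ndufaf5 and Uqcrc1, against 1.66% of the 27457 promoters of all genes. YY1 (ATGGCGGC), a zinc finger factor, was found in 9 (14.5%, against 2.76% of all promoters), among them Ndufs7, Sdhb and Uqcrc1. ETS (CCGGAAGT) was found in 6 (9.68%, against 4.01%), among them Atp5f1a, Cox8a and Uqcrh. The motif of the estrogen-related receptors (ERR, TCAAGGTCA) was found in Atp5mc3 and Sdhd only (3.23%, against 0.412%). These are matches of letters, and no binding was measured.

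Levels are log2 intensities after background correction and quantile normalization, which gives every array the same distribution of values, and a change is a difference of group means in log2. Raw array medians ran from 105 to 187 intensity units and correlations between arrays from 0.903 to 0.991. In the 70 genes, DEN 100 rat DEN_113 and vehicle rat 24 stood apart: they carried the first principal component (32.1% of the variance) with scores of 3.57 and 2.18. Over all features, the same 2 arrays had the lowest array weights (0.57 and 0.481). DEN 100 rat DEN_113 had the highest level of the 21 arrays in 17 of the 70 genes, and vehicle rat 24 the lowest in 12. Where a call named below is lost without one of them, its value without that array is given.

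Cell type markers moved with DEN, and their levels or counts are given here and with some of the results below. The mean level of 15 hepatocyte markers ran from 12.05 to 12.74 in DEN 100 livers, against 14.10 to 14.19 in PBS livers of week 12, and from 12.70 to 13.44 in vehicle livers, against 14.14 to 14.19 in PBS livers of week 18. In DEN 100 livers 8 of the 15 were called lower and 1 higher, and in vehicle livers 8 lower. The mean of 7 cholangiocyte and progenitor markers averaged 9.33 in DEN 100 livers and 6.88 in PBS livers, with 7 called higher, and that of 9 stellate cell and myofibroblast markers 9.59 and 7.99, also with 7 called higher. In bulk tissue, fewer cells of a type and less RNA per cell cannot be told apart. The part of these shifts in the changes below was not tested.

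With DEN 100, 10 of the 70 genes rose and 2 fell against PBS at week 12, by limma's moderated test at a Benjamini-Hochberg adjusted p under 0.05 over all features. That is 14.3% up, beside 11.5% of all 19339 features, and 2.86% down, beside 9.81%. The share that rose was close to that of the whole array, and the share that fell was smaller. The median change of the 70 genes was 0.20, beside -0.01 over all features, and 48 of the 70 changes were positive. Without the arrays of rats DEN_113 and 24, 14 rose and 3 fell and the median was 0.14.

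With DEN 50 at week 12, 4 genes rose (5.71%, beside 5.77% of all features) and none fell (beside 5.13%; 6 fell at an unadjusted p under 0.05). Here and below, the shares of all features are at the adjusted threshold, and counts at an unadjusted p have no such share beside them. DEN 50 had a median change of -0.04, with 31 positive changes of 70, and an all-feature median of -0.02. Between the doses, DEN 100 against DEN 50, 11 rose (15.7%, beside 5.07%) and 2 fell (2.86%, beside 4.31%), with a median of 0.12. That count rests in part on rat DEN_113, since 7 rose and none fell without it and rat 24.

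In vehicle rats at week 18, which had DEN 50 for longer and vehicle injections, 3 genes rose against PBS (4.29%, beside 9.51%) and 7 fell (10%, beside 8.73%). The median was -0.09, beside -0.03 over all features, and 47 of the 70 changes were negative. The same direction of the counts was seen with erlotinib 0.5 against PBS, with 1 gene up (1.43%, beside 8.01%) and 7 down (10%, beside 7.47%), and a median of -0.08. With erlotinib 2 against PBS none rose (beside 3.36%) and 1 fell (1.43%, beside 2.32%), with a median of -0.10. These 3 comparisons share the PBS arrays of week 18, and the comparisons of week 12 share theirs, so their values are set side by side only.

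**Figure D1:**
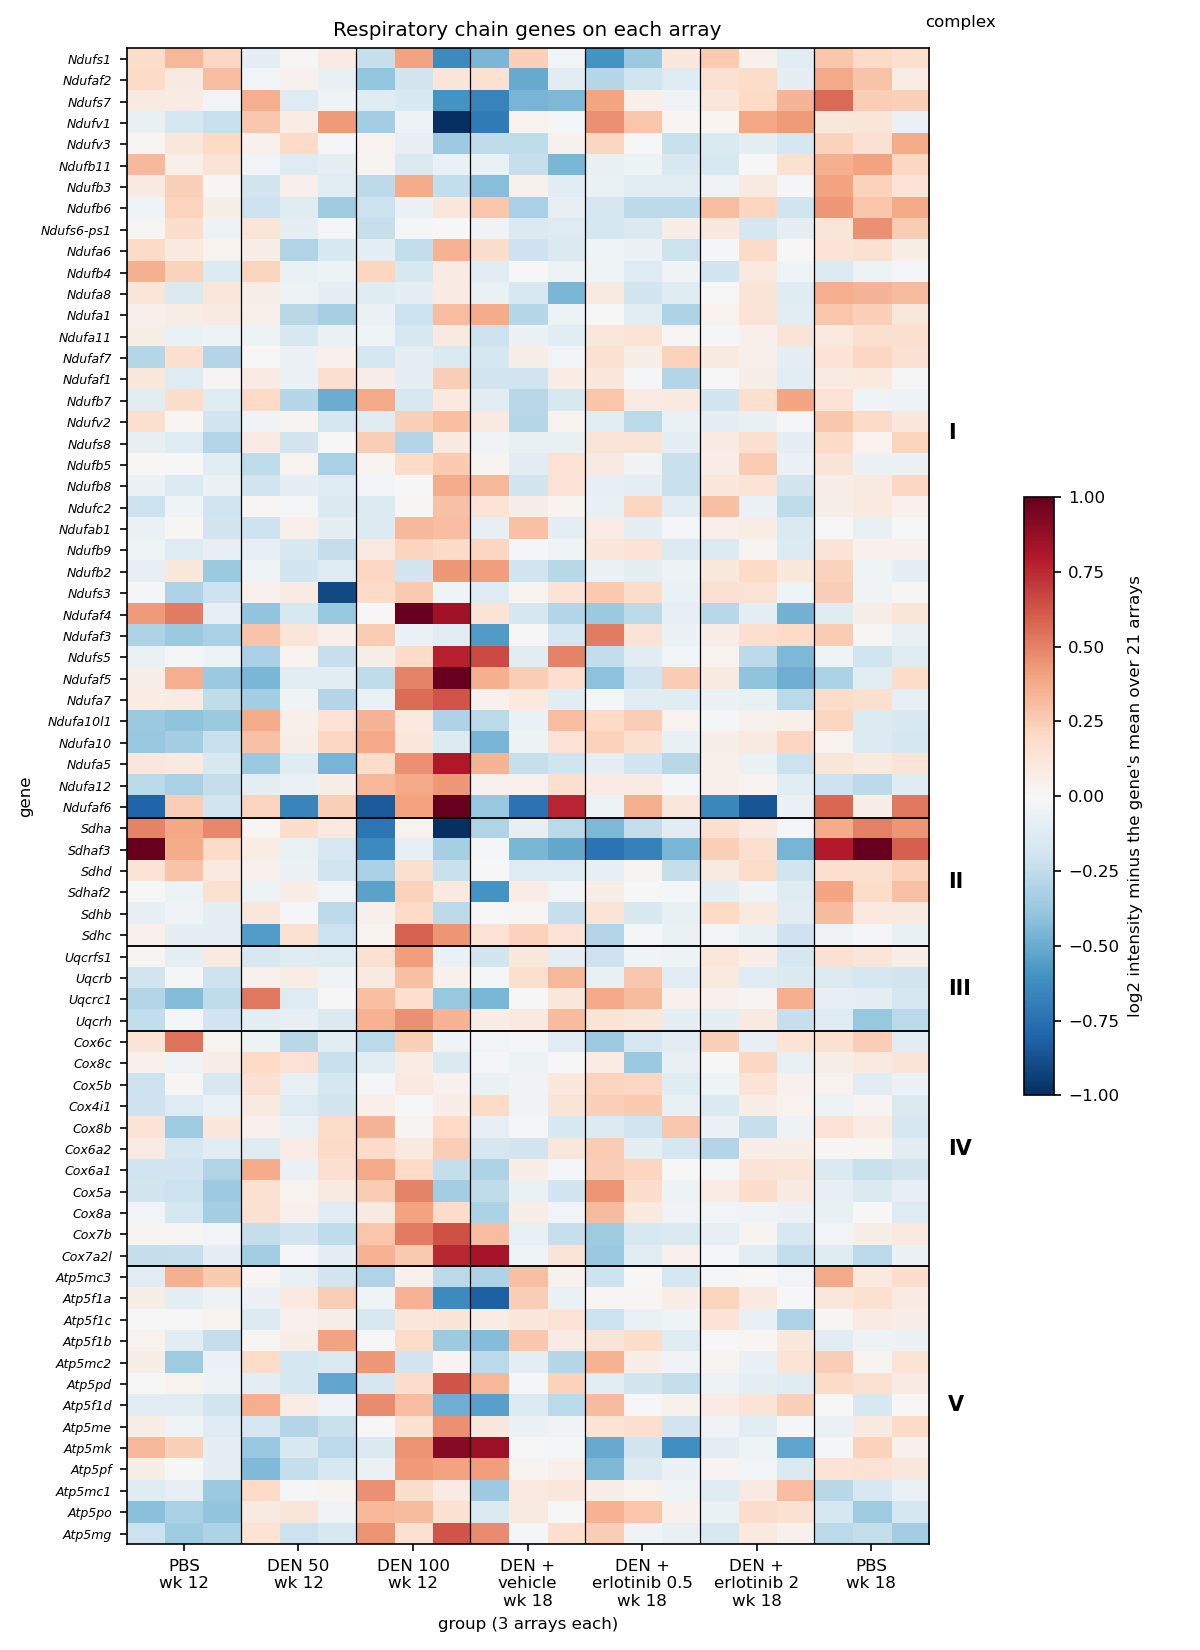
Log2 level of each of the 70 genes (y axis, by complex and then by change in DEN 100 livers) minus that gene's mean over the 21 arrays, for every rat (x axis, by group); the colour scale ends at 1 in both directions. Sdha and Sdhaf3 are above their means on the PBS arrays, and DEN 100 rat DEN_113 and vehicle rat 24 differ from the other arrays of their groups in many genes.

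Complex I oxidises NADH and is the largest of the 5, with 27 structural genes tested. In DEN 100 livers 3 rose and none fell against PBS (median 0.14), and in vehicle livers 1 rose and 4 fell (median -0.18, 21 of 27 changes negative). Ndufa12, an accessory subunit, rose by the most in DEN 100 livers, at 11.96, 12.00 and 12.06, against 11.36, 11.30 and 11.39 in PBS livers. It rose by 0.66 ± 0.09 (moderated SE pooled over all groups, n = 3 each; 1.58-fold, adjusted p = 1.5e-05), and by 0.41 ± 0.09 against DEN 50 (adjusted p = 0.0058). At week 18 it stood at 11.67, 11.67 and 11.79 in vehicle livers, 11.71, 11.71 and 11.61 with erlotinib 0.5, 11.68, 11.66 and 11.51 with erlotinib 2, and 11.42, 11.36 and 11.51 in PBS livers. Its 15 values in DEN rats therefore lay at or above every one of its 6 PBS values. The rise in vehicle livers was 0.28 ± 0.09 (adjusted p = 0.04), a call that held in 1 of the 6 fits that leave out an array of its groups (0.30 and adjusted p = 0.064 without rat 24).

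Ndufa5, another accessory subunit, stood at 11.27, 11.54 and 11.88 in DEN 100 livers, against 10.71, 10.96 and 10.62 in DEN 50 livers and 11.20, 11.18 and 10.93 in PBS livers. DEN 100 thus lay above DEN 50, which lay around or below PBS. The difference between the doses was 0.80 ± 0.16 (adjusted p = 0.0015) and that from PBS 0.46 ± 0.16 (adjusted p = 0.038), the second of which held in 1 of the 6 fits that leave out an array (0.30 and adjusted p = 0.24 without rat DEN_113). Ndufa7 also rose between the doses (0.60 ± 0.15, adjusted p = 0.014), which held in 2 of 6 (0.47 and adjusted p = 0.1 without rat DEN_113). Ndufa10, an accessory subunit, rose with both doses: 11.67, 11.43 and 11.58 in DEN 50 livers, against 10.99, 11.03 and 11.15 in PBS livers (0.50 ± 0.15, adjusted p = 0.028), and 0.43 ± 0.15 in DEN 100 livers (adjusted p = 0.037). Each of these calls held in 2 of 6 fits that leave out an array. Its paralog locus Ndufa10l1 rose by 0.57 ± 0.16 in DEN 50 livers (adjusted p = 0.02), a call that also held in 2 of 6 such fits. The array cannot tell how far the probes of Ndufa10 and Ndufa10l1 detect the same transcript.

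The core subunits of the matrix arm carry the cofactors of electron transfer, and their changes went both ways in DEN 100 livers. Ndufs3 changed by 0.31 ± 0.19, Ndufs8 by 0.18 ± 0.13 and Ndufv2 by 0.14 ± 0.13, none of them called. Ndufs7, an iron-sulfur subunit next to the quinone site, stood at 9.60, 9.81 and 9.83 in vehicle livers, against 10.84, 10.52 and 10.52 in PBS livers of week 18. The groups did not overlap, and the fall was 0.88 in log2 (-0.88 ± 0.15, 0.543-fold, adjusted p = 2e-04). In DEN 50 livers of week 12 it stood at 10.64, 10.15 and 10.23, against 10.36, 10.36 and 10.25 in PBS livers (0.02 ± 0.15), so the groups overlapped. The test of this difference in time gave -0.90 ± 0.22 (adjusted p = 0.073) and did not pass. Ndufv1, the flavoprotein that binds NADH, stood at 9.83, 10.12 and 9.17 in DEN 100 livers, against 10.43, 10.24 and 10.60 in DEN 50 livers. It was lower with the higher dose (-0.72 ± 0.21, adjusted p = 0.028), which held in 3 of 6 fits that leave out an array (-0.45 and adjusted p = 0.22 without rat DEN_113). Ndufs1, which holds iron-sulfur centers of the input module, had the lowest change of the complex in DEN 100 livers, at 10.26, 10.89 and 9.86, against 10.67, 10.83 and 10.70 in PBS livers (-0.40 ± 0.21, adjusted p = 0.21).

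The falls in vehicle livers also took in accessory subunits. Ndufb11 stood at 11.30, 11.14 and 10.91 in vehicle livers, against 11.72, 11.78 and 11.58 in PBS livers (-0.57 ± 0.12, adjusted p = 0.001). Ndufa8 stood at 9.73, 9.65 and 9.34, against 10.17, 10.14 and 10.12 (-0.57 ± 0.12, adjusted p = 0.0014). Neither group pair overlapped. Ndufv3, of the electron input module, fell less (-0.41 ± 0.13, adjusted p = 0.028), which held in 2 of 6 fits that leave out an array (-0.36 and adjusted p = 0.1 without rat 24). The pseudogene Ndufs6-ps1 fell by 0.38 (-0.38 ± 0.12, adjusted p = 0.027), also in 2 of 6. It was dim, at 6.42 to 6.77 on the DEN arrays and 6.60 to 7.10 on the PBS arrays, near the median of all values (6.38). With erlotinib 0.5 against PBS, Ndufb11 (-0.41 ± 0.12, adjusted p = 0.017), Ndufa8 (-0.42 ± 0.12, adjusted p = 0.02) and Ndufb6 (-0.59 ± 0.15, adjusted p = 0.0065) fell, calls that held in 3, 2 and 6 of 6 such fits. Ndufb6, of the membrane arm, changed by -0.41 ± 0.15 in vehicle livers (adjusted p = 0.06).

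Complex II oxidises succinate and is made of 4 structural subunits, all of nuclear genes and all measured. Sdha, the flavoprotein that holds the active site, was the 1 gene of the set that was lower on every DEN array than on any PBS array. At week 12 it stood at 11.44, 11.33 and 11.43 in PBS livers, 10.97, 11.12 and 11.04 in DEN 50 livers and 10.22, 10.98 and 9.90 in DEN 100 livers. At week 18 it stood at 10.65, 10.87 and 10.68 in vehicle livers, 10.50, 10.71 and 10.84 with erlotinib 0.5, 11.11, 11.04 and 10.94 with erlotinib 2, and 11.32, 11.45 and 11.39 in PBS livers. All 15 DEN values lay under all 6 PBS values, and the 3 values of DEN 100 were the widest spread.

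Sdha fell to 0.489-fold in DEN 100 livers (-1.03 ± 0.17, adjusted p = 1e-04), to 0.635-fold in vehicle livers (-0.66 ± 0.17, adjusted p = 0.0098) and to 0.613-fold with erlotinib 0.5 against PBS (-0.71 ± 0.17, adjusted p = 0.0067). The differences with DEN 50 at week 12 (-0.36 ± 0.17, adjusted p = 0.24) and with erlotinib 2 against PBS (-0.36 ± 0.17, adjusted p = 0.29) did not pass, although their arrays did not overlap. Their SE is pooled over all groups, the widely spread DEN 100 group included. Between the doses Sdha fell by 0.67 in log2 (-0.67 ± 0.17, adjusted p = 0.015), which held in 3 of 6 fits that leave out an array (-0.44 and adjusted p = 0.13 without rat DEN_113). Each of the 3 falls against PBS kept its call when any single array of its groups was left out. Under median scaling of the arrays none of the 3 passed (adjusted p = 0.083, 0.5 and 0.49 in that order).

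None of the other 3 subunits of complex II was called against PBS, and their difference from Sdha was not tested. All 4 had negative changes with erlotinib 0.5 and with erlotinib 2 against PBS. Sdhb, the iron-sulfur subunit, stood at 11.71, 11.86 and 11.40 in DEN 100 livers, against 11.58, 11.62 and 11.57 in PBS livers (0.07 ± 0.13, adjusted p = 0.81), and changed by -0.24 ± 0.13 in vehicle livers (adjusted p = 0.26). Sdhd, a membrane anchor, changed by -0.30 ± 0.13 in DEN 100 livers (adjusted p = 0.11) and by -0.27 ± 0.13 in vehicle livers (adjusted p = 0.17). Sdhc, the other anchor, was the highest of the complex in DEN 100 livers, at 12.97, 13.53 and 13.38, against 12.98, 12.84 and 12.84 in PBS livers (0.41 ± 0.15, adjusted p = 0.061). It rose against DEN 50 (0.56 ± 0.15, adjusted p = 0.019), which held in 2 of 6 fits that leave out an array (0.52 and adjusted p = 0.081 without rat DEN_113). The median change of the 4 genes was -0.12 in DEN 100 livers and -0.26 in vehicle livers.

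Complex III passes electrons from ubiquinol to cytochrome c, and 4 of its structural genes were measured. Uqcrh, the hinge protein that faces cytochrome c, stood at 13.80, 13.91 and 13.80 in DEN 100 livers, against 13.36, 13.37 and 13.31 in DEN 50 livers and 13.21, 13.44 and 13.27 in PBS livers. The DEN 100 values lay above all the others of week 12. Uqcrh rose by 0.53 ± 0.11 against PBS (adjusted p = 0.0012) and by 0.49 ± 0.11 against DEN 50 (adjusted p = 0.0064), and by 0.42 ± 0.11 in vehicle livers (adjusted p = 0.011), the last of which was lost without PBS rat 9 or vehicle rat 69. The other 3 were not called: Uqcrc1, a core protein, changed by 0.36 ± 0.18 in DEN 100 livers, Uqcrb, the ubiquinone-binding subunit, by 0.28 ± 0.12, and Uqcrfs1, the Rieske iron-sulfur protein, by 0.16 ± 0.12. The median of the complex was 0.32 in DEN 100 livers and 0.16 in vehicle livers.

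**Figure D2:**
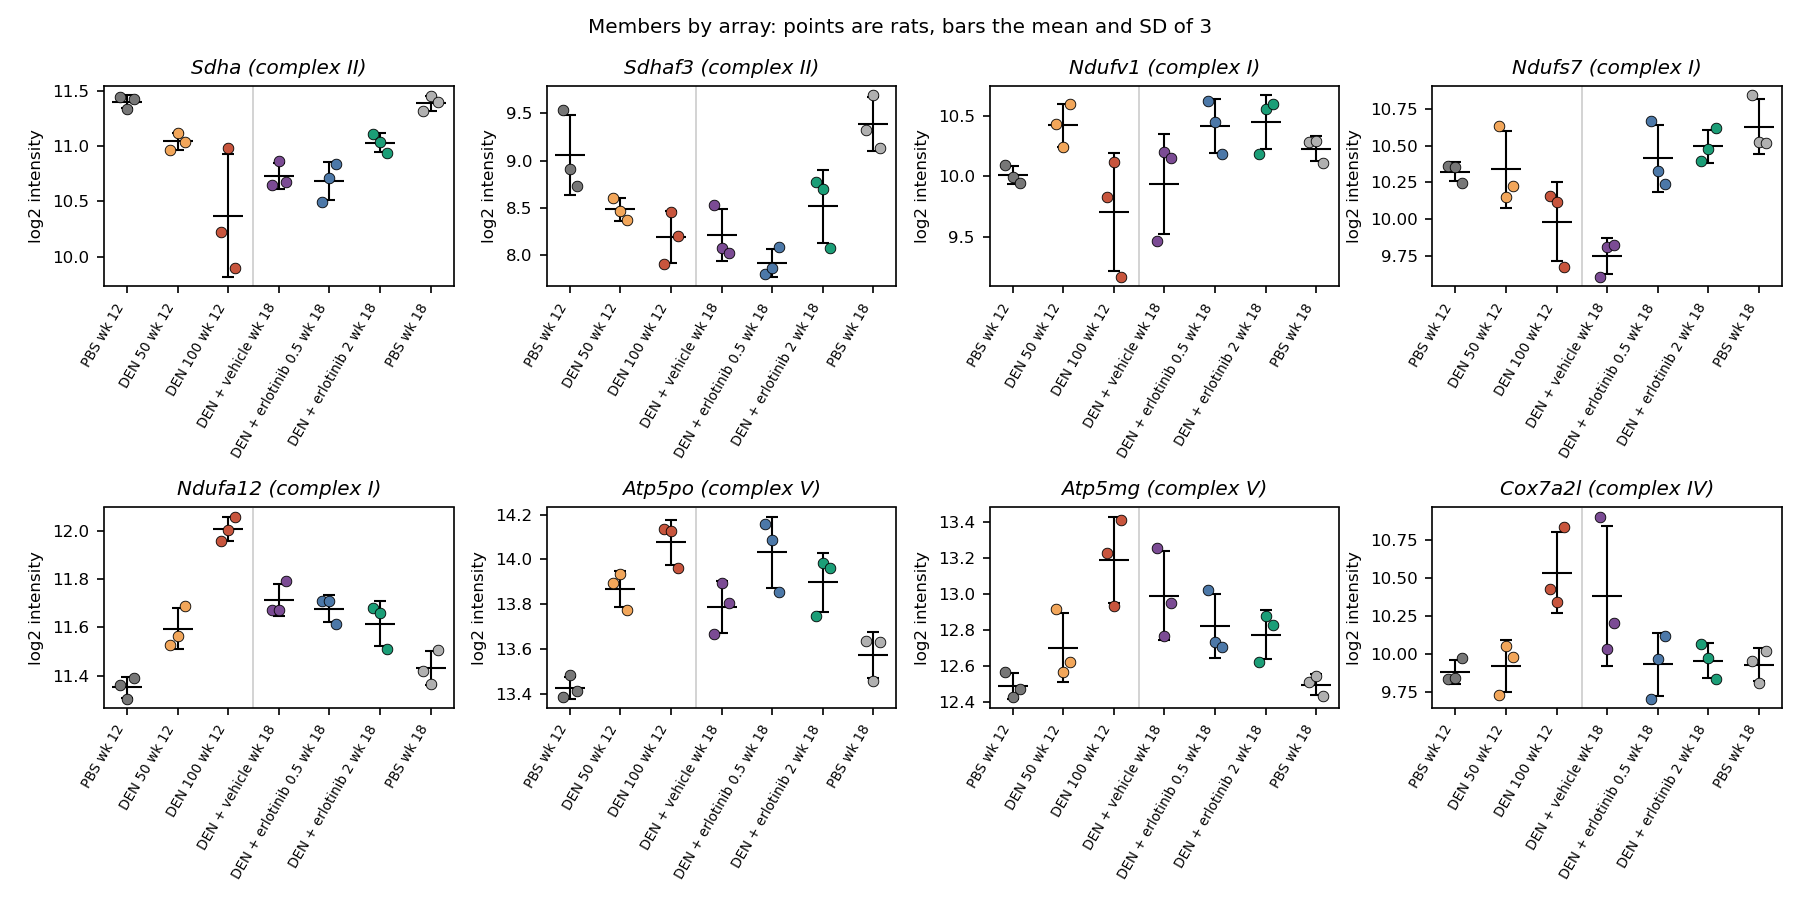
Log2 level (y axis) of 8 genes in each rat (points) of the 7 groups (x axis), with the mean and SD of the 3 rats. Sdha is under its PBS values in every DEN group, Atp5po and Ndufa12 are at or above theirs, and Ndufs7 is low in the vehicle group only (9.60 to 9.83) among the groups of week 18.

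Complex IV is cytochrome c oxidase, and the 8 genes of its liver form had a median change of 0.37 in DEN 100 livers, with 3 called up and none down. Without rats DEN_113 and 24 the median was 0.41, with 5 called up, under the 0.44 of complex III. Cox7b stood at 12.96, 13.20 and 13.33 in DEN 100 livers, against 12.44, 12.50 and 12.43 in DEN 50 livers and 12.71, 12.70 and 12.66 in PBS livers. The 3 groups were separate, with DEN 50 the lowest. The rise was 0.71 ± 0.13 against DEN 50 (adjusted p = 0.00062) and 0.47 ± 0.13 against PBS (adjusted p = 0.0078), and that against PBS missed the threshold without rat DEN_113 (0.39, adjusted p = 0.052).

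Cox7a2l, a subunit 7A-related protein of respiratory supercomplexes, stood at 10.43, 10.34 and 10.84 in DEN 100 livers, against 9.84, 9.84 and 9.98 in PBS livers (0.65 ± 0.18, adjusted p = 0.0093; 0.50 and adjusted p = 0.069 without rat DEN_113). In vehicle livers it stood at 10.90, 10.04 and 10.20, against 9.96, 9.81 and 10.02 (0.45 ± 0.18, adjusted p = 0.087), with rat 24 far above the other rats of its group. Cox8a, the liver-type isoform of subunit 8, rose by 0.41 ± 0.13 in DEN 100 livers (adjusted p = 0.023), which held in 3 of 6 fits that leave out an array. The remaining changes in DEN 100 livers did not pass: Cox5a 0.39 ± 0.16 (adjusted p = 0.083), Cox6a1, the liver-type isoform of subunit 6A, 0.34 ± 0.14 (adjusted p = 0.1), Cox4i1 0.17 ± 0.11 and Cox5b 0.16 ± 0.12. Cox6c had the lowest change, -0.27 ± 0.15, at levels of 6.34 to 6.85 in those livers. None of the 8 was called in vehicle livers, where the median was 0.01.

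Complex V makes ATP, and 13 of its genes were measured. Atp5po, the peripheral stalk protein that confers sensitivity to oligomycin, stood at 13.39, 13.48 and 13.41 in PBS livers, 13.89, 13.93 and 13.78 in DEN 50 livers and 14.14, 14.13 and 13.96 in DEN 100 livers. At week 18 it stood at 13.67, 13.89 and 13.80 in vehicle livers, 14.16, 14.08 and 13.85 with erlotinib 0.5, 13.74, 13.98 and 13.96 with erlotinib 2, and 13.64, 13.46 and 13.63 in PBS livers. Every DEN value lay above every PBS value. Atp5po rose by 0.65 ± 0.11 in DEN 100 livers (1.57-fold, adjusted p = 0.00012), by 0.44 ± 0.11 in DEN 50 livers (adjusted p = 0.011) and by 0.46 ± 0.11 with erlotinib 0.5 against PBS (adjusted p = 0.0058), with 0.21 ± 0.11 in vehicle livers (adjusted p = 0.22).

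Atp5mg, subunit g of the membrane part, stood at 13.23, 12.94 and 13.41 in DEN 100 livers, against 12.92, 12.57 and 12.62 in DEN 50 livers and 12.57, 12.43 and 12.47 in PBS livers. Each DEN 100 value lay above each of the others. It gave the largest rise of the set in DEN 100 livers against PBS, 0.70 ± 0.14 (1.63-fold, adjusted p = 0.00073), and rose by 0.50 ± 0.14 in vehicle livers (adjusted p = 0.016; lost without vehicle rat 24, at 0.36 and adjusted p = 0.11, or PBS rat 18). Of the 3 genes for subunit c, whose mature proteins are identical and form the rotor ring, Atp5mc1 rose in DEN 100 livers (0.43 ± 0.14, adjusted p = 0.033; held in 3 of 6 fits that leave out an array), while Atp5mc2 changed by 0.21 ± 0.15 and Atp5mc3 by -0.34 ± 0.15 (adjusted p = 0.12), the lowest of the complex. Atp5mc3 was dim, at 6.19 to 6.53 in DEN 100 livers.

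The catalytic head of complex V gave no call. Atp5f1b, the catalytic beta subunit, stood at 14.34, 14.53 and 13.98 in DEN 100 livers, against 14.38, 14.24 and 14.10 in PBS livers (0.05 ± 0.16). Atp5f1a, the alpha subunit, stood at 13.57, 13.97 and 12.98 in DEN 100 livers, against 13.68, 13.52 and 13.57 (-0.08 ± 0.21), and at 12.81, 13.87 and 13.55 in vehicle livers, against 13.73, 13.78 and 13.70 (-0.33 ± 0.21, adjusted p = 0.34). The low values were those of rats DEN_113 and 24. On the same 2 arrays Ndufs5, an accessory subunit of complex I, was at its highest, at 13.46 and 13.35, against 12.24 to 13.19 on the other 19.

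**Figure D3:**
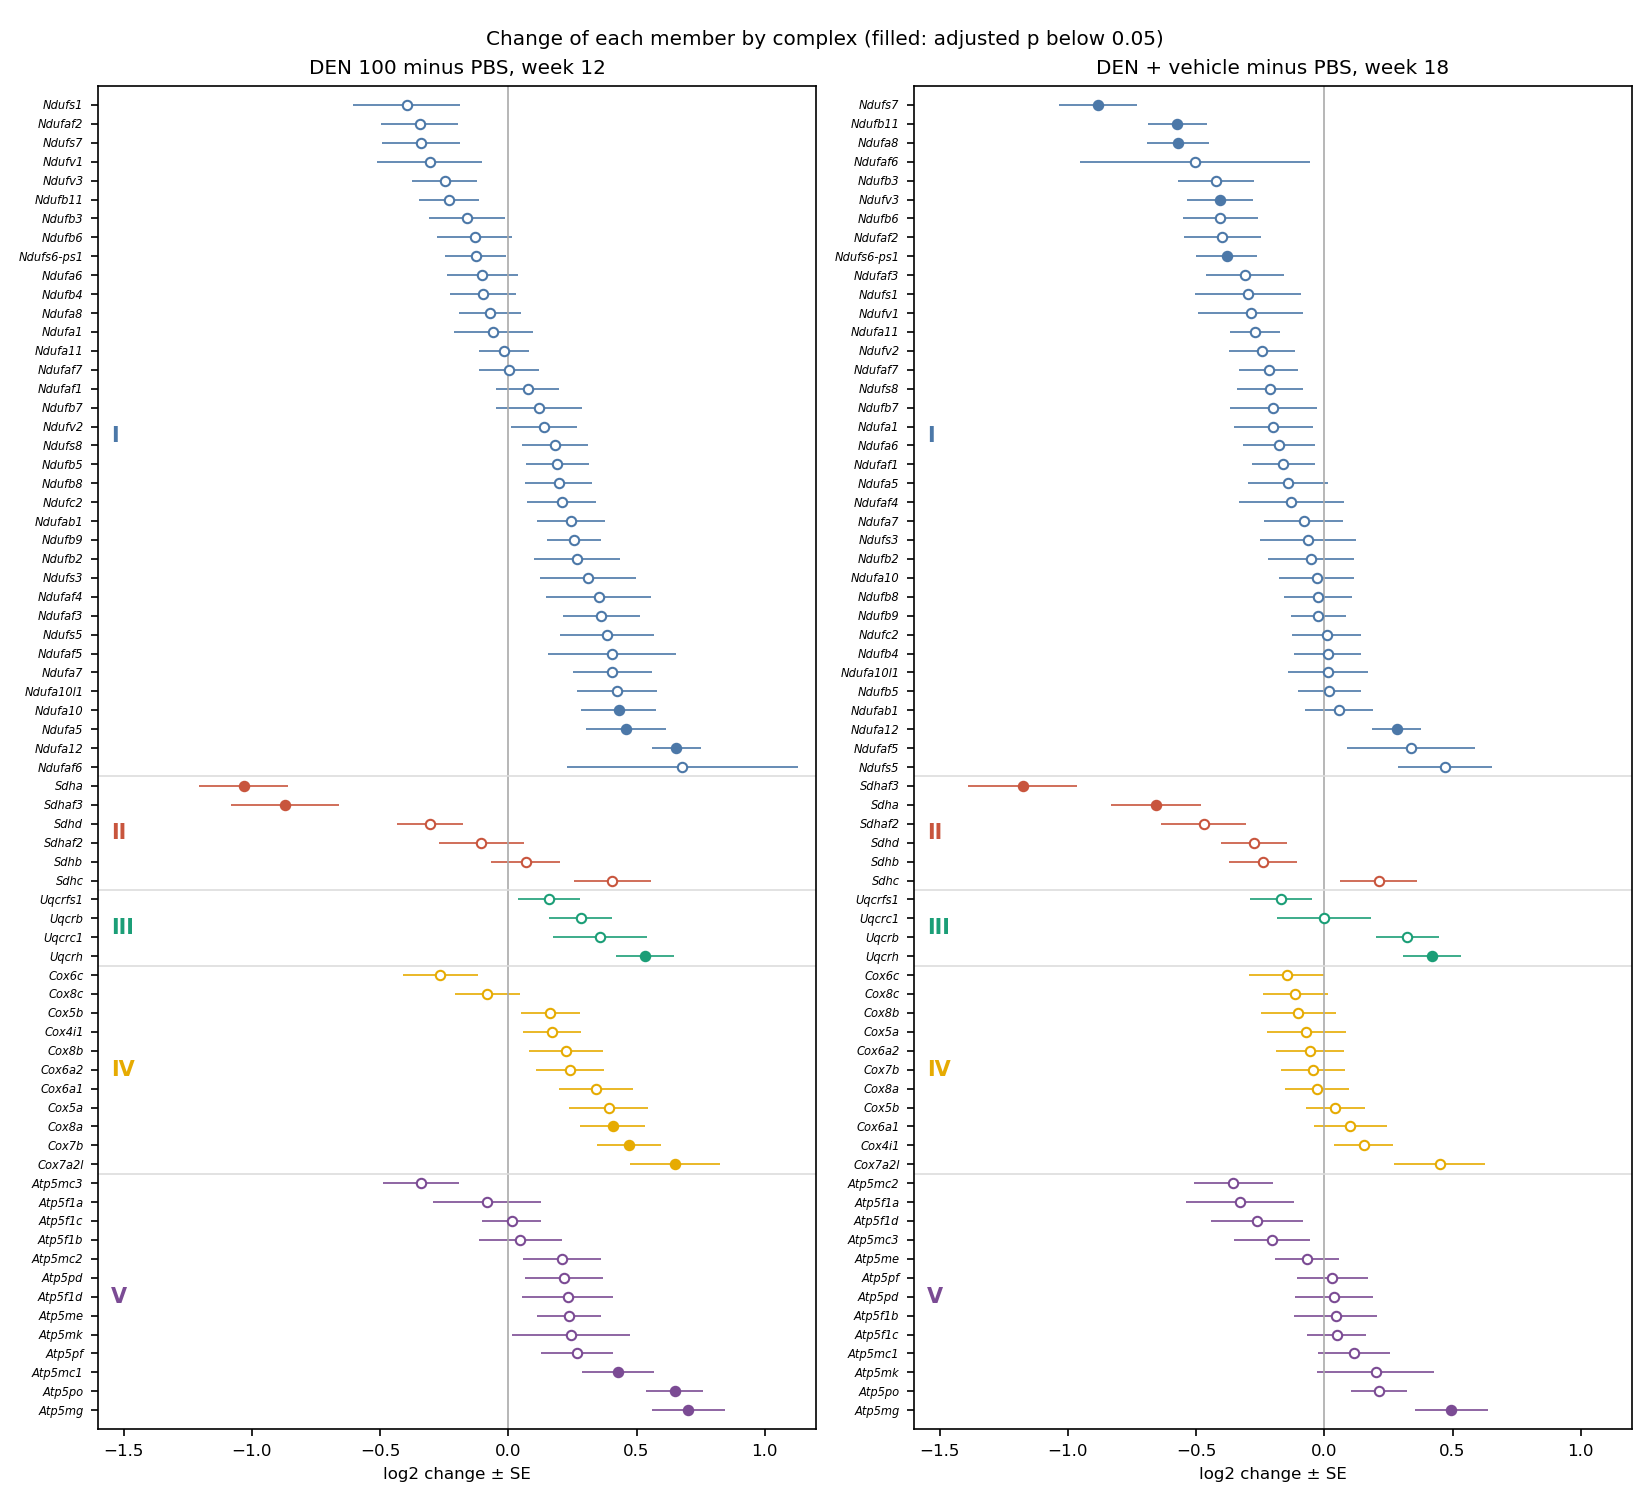
Log2 change (x axis) with its SE of each of the 70 genes, by complex (y axis), for DEN 100 minus PBS at week 12 and vehicle minus PBS at week 18; filled points passed an adjusted p under 0.05. Sdha and Sdhaf3 fell in both comparisons, and Atp5mg, Uqcrh and Ndufa12 rose in both.

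The assembly factors build the complexes without staying in them. Sdhaf3, which helps to mature the iron-sulfur subunit of complex II, fell together with Sdha. It stood at 7.90, 8.46 and 8.21 in DEN 100 livers, against 9.53, 8.91 and 8.73 in PBS livers (-0.87 ± 0.21, 0.547-fold, adjusted p = 0.0038), with no overlap. At week 18 it stood at 8.53, 8.08 and 8.02 in vehicle livers, 7.80, 7.86 and 8.08 with erlotinib 0.5, 8.78, 8.70 and 8.07 with erlotinib 2, and 9.33, 9.69 and 9.14 in PBS livers. It fell to 0.442-fold in vehicle livers (-1.18 ± 0.21, adjusted p = 3e-04), to 0.361-fold with erlotinib 0.5 (-1.47 ± 0.21, adjusted p = 3.7e-05) and to 0.548-fold with erlotinib 2 (-0.87 ± 0.21, adjusted p = 0.015), each against PBS. The last call was lost without PBS rat 9 or erlotinib 2 rat 31. PBS rat 7 of week 12 was high (9.53), and at week 12 the DEN 50 values of 8.61, 8.47 and 8.37 did not differ from PBS past the threshold (-0.58 ± 0.21, adjusted p = 0.092).

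Sdhaf2, needed for the flavination of Sdha, changed by -0.47 ± 0.17 in vehicle livers (adjusted p = 0.053) and by -0.11 ± 0.17 in DEN 100 livers. Of the 7 factors of complex I, Ndufaf3 rose in DEN 50 livers (0.49 ± 0.15, adjusted p = 0.042), a call lost when any 1 of its 6 arrays was left out. Ndufaf4 stood at 8.71, 9.77 and 9.55 in DEN 100 livers, against 8.31, 8.54 and 8.33 in DEN 50 livers, and gave the largest rise between the doses (0.95 ± 0.20, adjusted p = 0.0037). It did not differ from PBS past the threshold (0.35 ± 0.20, adjusted p = 0.27). Ndufaf2 fell with erlotinib 0.5 against PBS (-0.45 ± 0.15, adjusted p = 0.045), which held in 1 of 6 fits that leave out an array. In vehicle livers 8 of the 9 factors had negative changes, with a median of -0.31, but only Sdhaf3 was called.

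The muscle and testis isoforms Cox6a2, Cox8b and Cox8c stayed between 5.77 and 6.51 on all 21 arrays, around the median of all values, and none was called in any comparison. Their changes in DEN 100 livers were 0.24 ± 0.13, 0.22 ± 0.15 and -0.08 ± 0.13. The liver-type isoforms Cox6a1 and Cox8a, in contrast, were far above that median on every array.

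Against vehicle, erlotinib at the higher dose gave 1 called gene of the 70 (1.43%), a share below that of all features. Ndufs7 stood at 10.39, 10.48 and 10.62 with erlotinib 2, against 9.60, 9.81 and 9.83 in vehicle livers, a rise of 0.75 ± 0.15 (1.68-fold, adjusted p = 0.0058) without overlap. It kept its call when each array of the 2 groups was left out in turn. The count of 1 up and none down stands beside 1.92% and 2.11% of all features, and 5 genes rose and 5 fell at an unadjusted p under 0.05. The median change was 0.06, and Sdha changed by 0.30 ± 0.17 (adjusted p = 0.47) and Sdhaf3 by 0.31 ± 0.21 (adjusted p = 0.57). In the same comparison 4 of the 15 hepatocyte markers were called higher and 7 of the 9 stellate cell markers lower, and their part was not tested.

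Erlotinib 0.5 against vehicle gave no call in either direction by limma, beside 0.103% of all features up and 0.0362% down. At an unadjusted p under 0.05, 8 genes were up and 5 down, counts that cannot be set beside those shares. Ndufs7 stood at 10.67, 10.33 and 10.24 with erlotinib 0.5 and changed by 0.67 ± 0.15 (adjusted p = 0.08). Between the doses, erlotinib 2 against erlotinib 0.5, none was called (beside 0.0362% up and 0.0414% down), and 3 were higher at an unadjusted p under 0.05. A difference between the doses was not shown for Ndufs7, at 0.08 ± 0.15.

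Time alone called none of the 70 genes in PBS livers, week 18 against week 12, as it called 0% of all features up and 0% down, with 5 genes higher and none lower at an unadjusted p under 0.05. Even so, 60 of the 70 changes were positive, with a median of 0.10 beside 0.00 over all features. Vehicle livers of week 18 against DEN 50 livers of week 12 gave no call (beside 0.15% up and 0.393% down; 7 up and 5 down unadjusted), with a median of -0.02. The interaction of DEN 50 and time gave none either (beside 0.0517% up and 0.181% down; 2 up and 8 down unadjusted), with a median of -0.10. This and the comparison before it also hold the vehicle injections.

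Across all arrays, 2 of the 70 genes were higher on every one of the 15 DEN arrays than on any of the 6 PBS arrays (beside 3.8% of all features) and 1 was lower (beside 2.32%). For Ndufa12 the lowest, median and highest values were 11.51, 11.68 and 12.06 on DEN arrays and 11.30, 11.38 and 11.51 on PBS arrays. For Atp5po they were 13.67, 13.93 and 14.16 on DEN arrays and 13.39, 13.47 and 13.64 on PBS arrays. For Sdha they were 9.90, 10.87 and 11.12 on DEN arrays and 11.32, 11.41 and 11.45 on PBS arrays. These shares lie near or below the background, and the 3 genes are given as a description.

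The complexes were compared through the median change of their structural genes. In DEN 100 livers against PBS it was 0.14 for complex I, -0.12 for II, 0.32 for III, 0.37 for IV and 0.23 for V. In vehicle livers against PBS it was -0.18 for I, -0.26 for II, 0.16 for III, 0.01 for IV and 0.04 for V. In DEN 50 livers it was -0.07 for I, -0.20 for II, 0.10 for III, 0.07 for IV and 0.07 for V. Complex II had the lowest of the 5 medians in these comparisons and in both erlotinib groups against PBS. This held under each of 5 ways to make the values (25 of 25), and in 22 of 25 when Sdha was left out. These 25 are not independent, since the comparisons share PBS arrays and some settings are nearly alike. Quantile normalization with and without background correction and the deposited table gave 0.139, 0.137 and 0.140 for complex I in DEN 100 livers. The scalings by a single factor per array count once here, since they cannot change the order of the complexes. Complex III had the highest median in 15 of the 25 and complex IV in 10. With 4 genes in complexes II and III each, such a median rests on few genes. Without rats DEN_113 and 24 the medians in DEN 100 livers were 0.07 for I, -0.03 for II, 0.44 for III, 0.41 for IV and 0.19 for V, so complex III and not IV was highest. In vehicle livers they were then -0.22 for I, -0.29 for II, 0.29 for III, 0.08 for IV and -0.04 for V, and complex V changed sign.

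A difference between complexes on the same array does not depend on a factor that multiplies the whole array. For each array, every gene's level was taken minus its mean over the 21 arrays and averaged within a complex. Complex III minus complex II ran from -0.13 to 0.47 on the 15 DEN arrays and from -0.32 to -0.24 on the 6 PBS arrays, so the groups did not overlap. Nor did they under any of the 5 settings counted above, some of which are nearly alike. Scalings by a single factor per array give this difference the same value by construction. Complex IV minus II ran from -0.15 to 0.41, against -0.26 to -0.18, and complex V minus II from -0.14 to 0.40, against -0.22 to -0.16, both without overlap. When Sdha was left out, 14, 14 and 11 of the 15 DEN arrays stayed above all PBS arrays for III, IV and V minus II.

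Complex IV minus complex I, which does not involve Sdha, ran from -0.04 to 0.21 on DEN arrays and from -0.21 to -0.05 on PBS arrays, again without overlap. When each array was scaled by a single factor, 12 of the 15 DEN arrays lay above all PBS arrays for this pair, 14 for complex IV minus II and 13 for complex V minus II. Complex I minus II was above all PBS arrays on 11 of the 15 DEN arrays, and complex III minus IV on 7. Among III, IV and V no pair separated the groups.

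**Figure D4:**
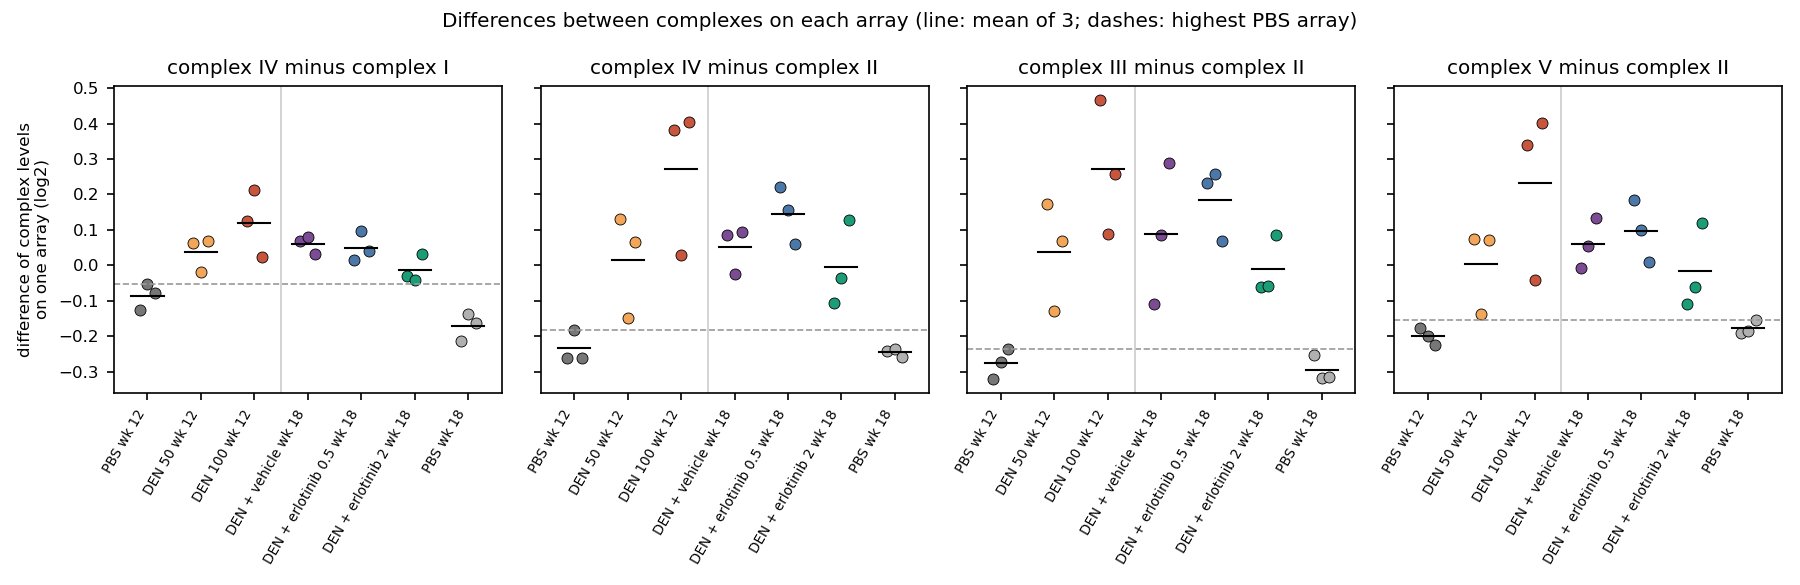
Difference in mean centered log2 level between 2 complexes on the same array (y axis) for each rat (points) in the 7 groups (x axis), with lines for the mean of 3 rats; the dashed line is the highest PBS array. All 15 DEN arrays lie above the dashed line for complex IV minus I, IV minus II, III minus II and V minus II.

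How the arrays were scaled decided the sign of the small shared shifts. Quantile normalization gave a median change of 0.20 for the 70 genes in DEN 100 livers against PBS, and cyclic loess gave 0.06. Scaling each array to its median gave 0.18, to its 75th percentile -0.06 and to the median of its bright probes -0.04. In DEN 50 livers the same 5 settings gave -0.04, -0.08, 0.30, -0.10 and -0.25, with 63 of 70 changes positive under median scaling and 13 under bright-probe scaling. In vehicle livers they gave -0.09, -0.18, 0.02, -0.31 and -0.38.

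The whole array moved with the scaling. Under bright-probe scaling the median of all features was -0.21 in DEN 100 livers, -0.50 in DEN 50 livers and -0.37 in vehicle livers, against PBS. The 3 scalings by a single factor differ only by a constant per array, so the median of the 70 genes relative to all features was the same in each: 0.18 for DEN 100, 0.26 for DEN 50 and -0.01 for vehicle. Under quantile normalization it was 0.21, -0.02 and -0.07, and under cyclic loess 0.06, -0.07 and -0.17. A median above that of all features was therefore given by all 5 settings for DEN 100 only, while DEN 50 changed sign. The order of the doses changed as well, since DEN 100 against DEN 50 was 0.11 relative to all features under quantile normalization and -0.19 under the scalings by a single factor.

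The calls followed. In DEN 100 livers 10 genes rose and 2 fell with quantile normalization, 6 rose and 5 fell with cyclic loess, 1 rose and none fell with median scaling, none rose and 2 fell with bright-probe scaling, and none rose and 3 fell with the 75th percentile. Of all features, 11% rose and 9.1% fell with cyclic loess, 8.14% and 3.84% with median scaling, 6.21% and 6.25% with bright-probe scaling and 6.75% and 8.03% with the 75th percentile. In vehicle livers 3 rose and 7 fell with quantile normalization, none rose and 11 fell with cyclic loess, 1 rose and none fell with median scaling, and none rose and 10 fell with bright-probe scaling. There 9.33% of all features rose and 7.47% fell with cyclic loess, 8.07% and 2.08% with median scaling and 4.14% and 5.92% with bright-probe scaling. The rises of Ndufa12, Uqcrh and Atp5po in DEN 100 livers were calls in 9 of 12 alternative settings. Among the 6 that change the scaling or background correction they were calls in 3, and they were lost under each scaling by a single factor. The falls of Sdha and Sdhaf3 in DEN 100 and vehicle livers were calls in 11 of 12 and in 5 of those 6. So were the falls of Ndufs7, Ndufb11 and Ndufa8 in vehicle livers and the rise of Ndufs7 with erlotinib 2 against vehicle. All of these were lost under median scaling alone. A setting among the 12, the mean of a gene's probes, leaves the values of these genes unchanged, as each has 1 probe.

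**Figure D5:**
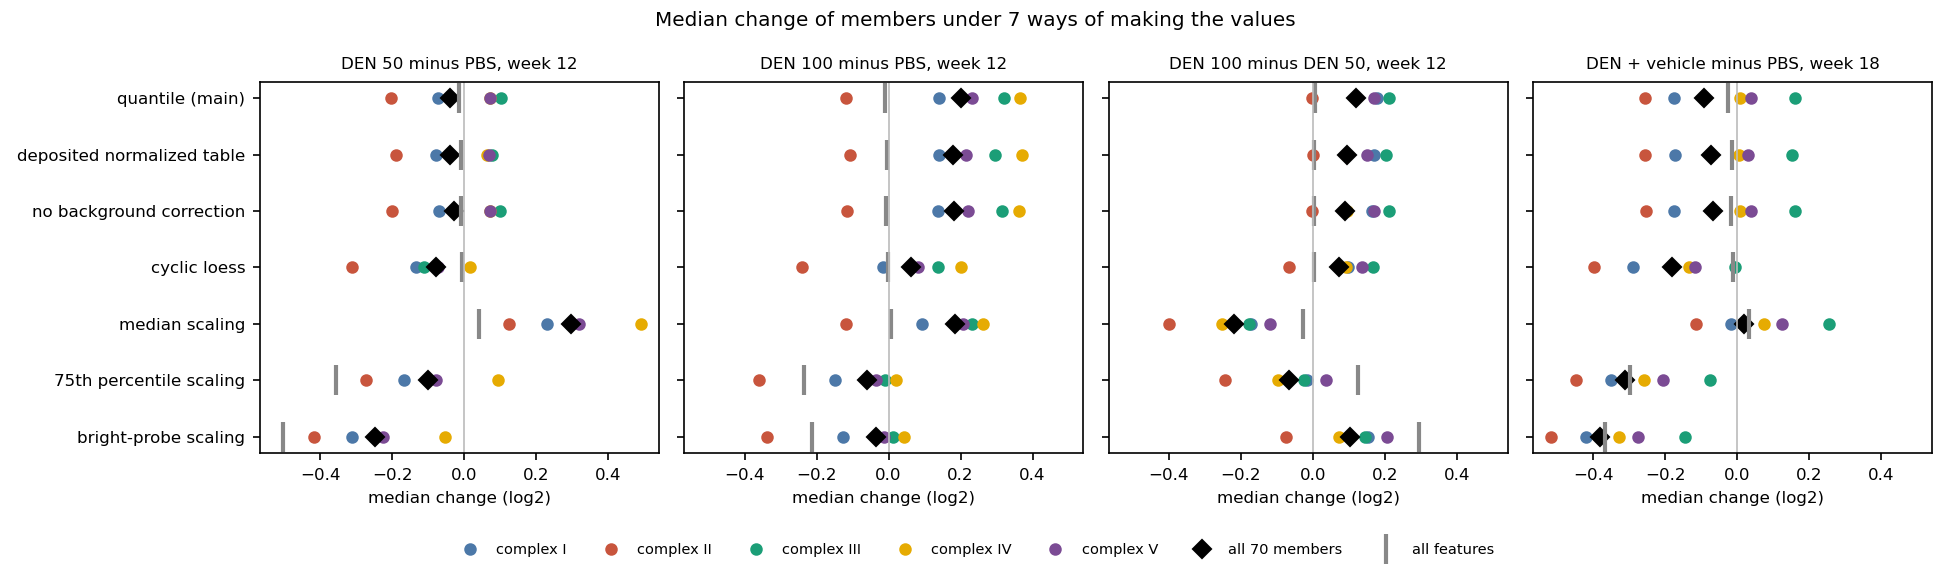
Median log2 change (x axis) of the structural genes of each complex (coloured points), of all 70 genes (diamond) and of all features (grey bar) under 7 scalings (y axis), in 4 comparisons. Complex II lies lowest in each row, and the diamond crosses 0 between scalings, from -0.25 to 0.30 in DEN 50 livers.

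Mitochondrial genes outside the name rule were counted from fixed lists, to be read beside the shares of all features, 11.5% up and 9.81% down in DEN 100 livers and 9.51% up and 8.73% down in vehicle livers. Of 9 genes of nucleotide and phosphate exchange, 4 rose in DEN 100 livers and none fell, and 3 rose in vehicle livers. Slc25a4, the muscle-type adenine nucleotide translocase, rose by 3.67 ± 0.26 and 2.95 ± 0.26 in these 2 comparisons, and Ucp2, an uncoupling protein homolog, by 1.85 ± 0.22 and 1.74 ± 0.22. The mean of 7 skeletal and cardiac muscle markers ran from 6.64 to 7.20 in DEN 100 livers, against 6.24 to 6.31 in PBS livers, with 2 called higher. In vehicle livers it ran from 6.46 to 6.70, against 6.24 to 6.34 in PBS livers, with 1 called higher, and its part in the rise of Slc25a4 was not tested. With erlotinib 2 against vehicle Slc25a4 fell by 1.08 (-1.08 ± 0.26, adjusted p = 0.021). Of 20 import genes, 6 rose in DEN 100 livers and none fell, led by the chaperonin Hspe1 (1.24 ± 0.17) and the receptor Tomm20 (1.03 ± 0.17), and 4 rose in vehicle livers.

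Other lists held falls in some members. Of 15 genes of the tricarboxylic acid cycle and its entry steps, 1 fell in DEN 100 livers, pyruvate carboxylase (Pc, -2.04 ± 0.19), and Pc, Pdhb, Suclg1 and Sucla2 fell in vehicle livers, where the list median was -0.27. Pc rose with erlotinib 2 against vehicle (0.92 ± 0.19, adjusted p = 0.0068). Of 12 genes listed with the electron carriers, Coq8a (not itself a carrier), Etfdh and Etfb fell in DEN 100 livers (-1.16 ± 0.28, -0.96 ± 0.26 and -0.55 ± 0.15). Cytochrome c (Cycs) rose (0.63 ± 0.16). Of 17 genes of mitochondrial biogenesis and mtDNA upkeep, 2 rose and 4 fell, with falls in the DNA polymerase gene Polg (-1.04 ± 0.20) and the RNA polymerase gene Polrmt (-0.68 ± 0.13).

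Of 19 assembly factors under other names, 2 rose and 2 fell in DEN 100 livers, and the copper chaperone of complex IV, Cox17, rose by 1.14 ± 0.15. Of 12 genes of mitophagy and dynamics 3 rose and 1 fell, the kinase gene Pink1 (-1.23 ± 0.19). Of 13 hypoxia response genes 1 rose, Adm (1.12 ± 0.15), and 2 fell. In vehicle livers the counts were 1 up and 4 down for biogenesis and none up and 3 down for the list with the electron carriers. They were 2 and 2 for the assembly factors, 1 and 2 for mitophagy and dynamics and 2 and 1 for hypoxia. These lists were described by their counts, and they share the cell type shifts given above.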

How the data were processed

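Liver RNA was measured on Illumina bead arrays, 1 per rat. The main table holds raw intensity values as deposited by the authors, without detection p-values or control probes. A second deposited table of normalized intensity values, with array medians of 135 to 137, served as an alternative. No source used here names the scanner software or how that table was normalized. The number of arrays limits the precision.

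Raw intensities went through normexp background correction with an offset of 50, log2 and quantile normalization (R 4.3.3, limma 3.58.1). The filter asked for a signal over the 40th percentile of an array on 3 or more arrays. Each gene was read from its brightest probe, for 19339 features and 12112 named genes. Group means over 21 arrays in 7 groups (14 residual degrees of freedom) were compared with limma's moderated test, called at a Benjamini-Hochberg adjusted p under 0.05 over all features. Symbols came from the platform annotation, and all 71 genes matched a RefSeq gene of assembly GRCr8. Genes named are up to 6 highest and 6 lowest called changes per comparison, core subunits, isoforms, the extremes of each complex and all calls where a comparison has 5 or fewer. From the other lists up to 3 called genes are named in a comparison. The fit was tested on simulated data. The alternatives took other scalings or background settings, filters, treatments of the spread, probe rules and subsets of arrays, and left out each array in turn. Leaving out both arrays that stand apart, and keeping members above the median level, were added after seeing the data. The members and lists were chosen with earlier results of these data known. Plots used Python 3.11.15 and matplotlib 3.10.9.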

Additional observations from a re-analysis of the deposited data

How the results depend on the processing

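Scaling moved the results most. Median scaling left 2 genes called for DEN 50 (median change 0.30), 1 for DEN 100, 0 for DEN 100 against DEN 50 (-0.22), 1 for vehicle against PBS (0.019), 0 for erlotinib 2 against vehicle, 1 for erlotinib 0.5 against PBS (0.094) and 0 for erlotinib 2 against PBS (0.075), with medians of -0.14 for vehicle against DEN 50 and -0.26 for the interaction. Bright-probe scaling gave 0 calls for DEN 50 (-0.25), 2 for DEN 100 (-0.035), 3 for DEN 100 against DEN 50 and 0 for erlotinib 2 against PBS (-0.25), with medians of -0.38 for vehicle and -0.37 for erlotinib 0.5 against PBS, 0.14 for erlotinib 2 against vehicle, 0.14 for erlotinib 2 against erlotinib 0.5, 0.17 for PBS over time and 0.057 for vehicle against DEN 50. The 75th percentile gave 1 call for DEN 50 (-0.10), 3 for DEN 100 (-0.059), 3 for DEN 100 against DEN 50 (-0.065) and 0 for erlotinib 2 against PBS (-0.16), with medians of -0.31 for vehicle and -0.26 for erlotinib 0.5 against PBS, 0.16 for erlotinib 2 against vehicle, 0.12 against erlotinib 0.5 and -0.20 for the interaction. Cyclic loess gave medians of 0.063 for DEN 100, 0.074 for DEN 100 against DEN 50, -0.18 for vehicle and -0.20 for erlotinib 0.5 against PBS, and 2 calls for erlotinib 2 against PBS. That comparison also had 2 calls in the deposited table, without background correction and with the compared arrays alone, where DEN 100 against DEN 50 had 3 and vehicle 6. The stricter filter gave 16 for vehicle, array weights 1 for erlotinib 0.5 against vehicle, and the trended, robust spread 4 for erlotinib 0.5 against PBS. Without both arrays that stand apart, DEN 100 had a median of 0.14 and DEN 100 against DEN 50 had 7 calls. Atp5po with erlotinib 0.5 against PBS reversed under bright-probe scaling (-0.0092). Leaving out 1 array gave 6 to 15 calls for DEN 100 against DEN 50, 1 to 5 for DEN 50, 4 to 7 for erlotinib 0.5 against PBS, 0 to 1 for erlotinib 2 against PBS and 1 to 2 for erlotinib 2 against vehicle, and medians of 0.14 to 0.22 for DEN 100, -0.11 to -0.027 for erlotinib 2 against PBS and -0.041 to 0.050 for vehicle against DEN 50. The causes were not tested. In all, 131 of 156 counts and 138 of 168 medians did not move past the limits set for them. A count was held to have moved when it changed by more than 1.5-fold or between 0 and any calls. Part of this agreement was fixed in advance. The trended, robust spread, the compared arrays alone, the mean of a gene's probes and no filter cannot change a median. The totals are therefore no measure of robustness. No paired analysis was possible because the groups share no replicate numbers in the labels. Signal over background limits Ndufs4, Cox6a2, Cox8b, Cox8c and Ndufb4, which lie around the median of all values. It also limits Ndufs6-ps1, Cox6c and Atp5mc3, which lie little above that median.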
